A study of Mus musculus with 18 samples.

Results

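The BMS961 time course consists of the 4 arrays whose titles name BMS961, out of 18 arrays in the series, and each was set against the 2 ethanol vehicle arrays, each apart and both together. F9 cells, a mouse embryonal carcinoma line that turns into endoderm when given retinoids, were grown on gelatine in serum-containing medium. BMS961, which the labels describe as an agonist specific for retinoic acid receptor gamma, was given at 0.1 µM for 2 h, 6 h, 24 h or 48 h, with 1 array per time. The vehicle cells received ethanol for 48 h, so the arrays at 2 h, 6 h and 24 h also differ from vehicle in time since treatment began. The rest of the series holds all-trans retinoic acid (ATRA) and agonists of the alpha and beta receptors (BMS753 and BMS641), each at 1 µM over the same times. Nothing in the labels tells if the cultures behind the vehicle pair were separate, and the spread within the pair may be technical.

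Retinoic acid receptors are ligand-controlled transcription factors that sit on DNA as heterodimers with retinoid X receptors. An agonist swaps corepressors for coactivators at genes they occupy, and the classical direct targets include the enzyme that degrades retinoic acid (Cyp26a1), the receptor gene Rarb and the anterior Hox genes. In F9 cells the gamma receptor is known as the main mediator of differentiation to primitive endoderm, a change marked by GATA factors, laminin and type IV collagen.

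All values are log2 levels, so a difference of 1 is 2-fold, and levels are not compared between genes. Of 19938 genes, the BMS961 arrays had medians of 5.91 to 6.00, against 6.00 and 5.82 on vehicle replicates 1 and 2. Embryonal carcinoma markers (8 genes, Pou5f1, Sox2 and Nanog among them) had medians of 10.67 to 11.22 with BMS961 and 11.75 and 11.04 with vehicle. In order of time, the 12 primitive and parietal endoderm markers had medians of 6.59, 6.76, 7.39 and 9.43 with BMS961. Their vehicle medians were 7.25 and 6.16. The 6 visceral endoderm markers had medians of 4.49 to 4.65 with BMS961 and 4.60 and 4.38 with vehicle. Medians with BMS961 were 6.84 to 7.10 for 4 neural, 4.70 to 5.26 for 5 trophoblast and 5.74 to 5.87 for 6 fibroblast markers. With vehicle these were 7.03 and 6.73, 4.84 and 4.63, and 5.72 and 5.50. The vehicle arrays stood apart from each other: on replicate 1, 311 genes were higher than on replicate 2 by 2-fold or more, and 354 were lower by as much. Cholesterol synthesis genes (16 measured) were lower on vehicle replicate 1 than on replicate 2 by a median of 1.04, and hypoxia and glycolysis genes (18 measured) by a median of 0.81. For that reason a gene was counted at a time only where BMS961 was at least 2-fold above both vehicle arrays or at least 2-fold below both. With 1 array per time this count has no test and no error. In bulk RNA, fewer cells of a type and less RNA per cell cannot be told apart.

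The number of genes past this rule was small at first and grew with time. At 2 h, 5 genes were higher (0.0251% of those measured) and 2 were lower (0.01%), or 0.0351% in either direction. At 6 h the counts were 16 higher (0.0802%) and 13 lower (0.0652%), or 0.145% in either direction. That split turned with the vehicle array: 51 higher and 61 lower against the vehicle mean, 225 and 295 against replicate 1 alone, and 94 and 53 against replicate 2 alone. At 24 h they were 93 higher (0.466%) and 25 lower (0.125%), or 0.592%, and at 48 h 202 higher (1.01%) and 70 lower (0.351%), or 1.36%. Higher genes outnumbered lower ones at 24 h and 48 h whichever vehicle array was used. The growth with time was not the same against each vehicle array alone. Against replicate 2 alone, 57 genes were past 2-fold at 2 h and 797 at 48 h, but against replicate 1 alone 596 were past it at 2 h and 618 at 48 h.

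**Figure D1:**
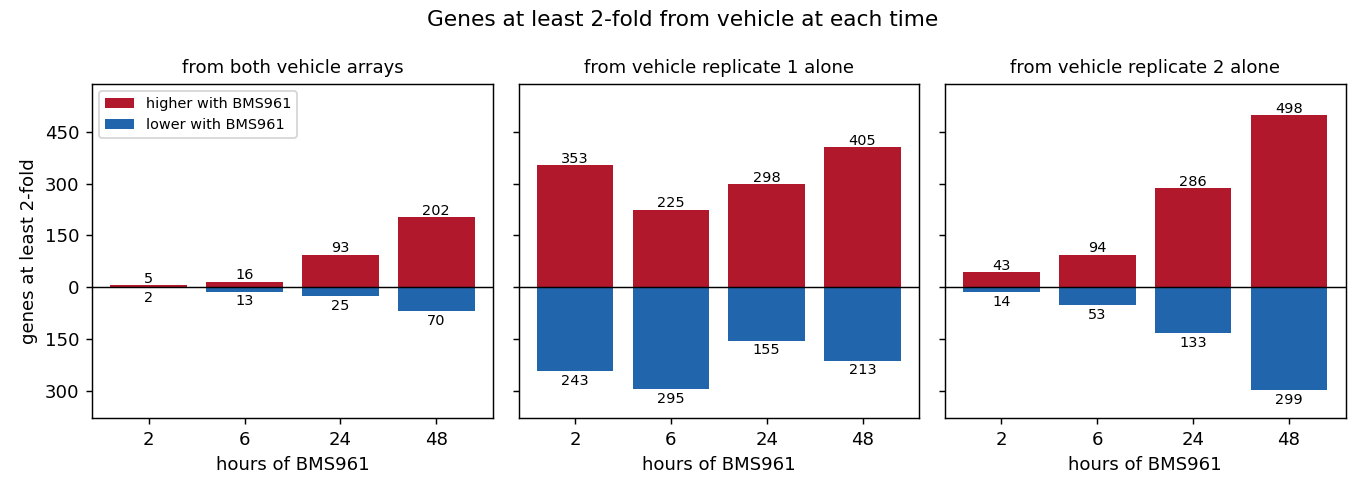
Genes at least 2-fold higher (above the zero line) or lower (below it) on each BMS961 array, by hours of treatment, against both vehicle arrays, vehicle replicate 1 alone and vehicle replicate 2 alone. Against both, the counts grow from 5 higher and 2 lower at 2 h to 202 higher and 70 lower at 48 h, and against replicate 1 alone they are already 353 and 243 at 2 h.

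The order in which genes began to differ was read from the first time after which a gene stayed past the rule in the same direction. Such a lasting difference began at 2 h for 4 genes, at 6 h for 8, at 24 h for 78 and at 48 h for 182. Among the 182, 4 genes had also been past the rule at 2 h or 6 h, in either direction, but missed it at 24 h. Gadd45b, Zbtb10 and Cyp7b1, described below, are of this kind. A passing difference, present at 2 h or 6 h and at neither later time, was seen for 11 genes (0.0552%).

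The 4 genes with a lasting difference from 2 h were Cyp26a1 and Plk3, higher with BMS961 (0.01%), and Otx2 and Fst, lower (0.01%). Cyp26a1, the cytochrome P450 that clears retinoic acid, stood at 8.04, 9.07, 8.94 and 9.14 at 2 h, 6 h, 24 h and 48 h of BMS961, against 5.05 and 4.85 with vehicle. It was 7.95-fold above the nearer vehicle array by 2 h and 16.2-fold by 6 h, and then stayed level, with 73.8% of its 48 h difference present at 2 h and 98.2% at 6 h. Plk3, a stress-responsive polo-like kinase, stood at 9.02, 8.91, 9.14 and 8.92 with BMS961, against 7.51 and 7.36 with vehicle. Its full difference was there at 2 h, 2.84-fold above the nearer vehicle array, and its 4 levels differed from each other by less than they differed from vehicle.

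The transcription factor gene Otx2, which marks the epiblast and anterior neural tissue, stood at 7.94, 7.53, 6.35 and 6.39 with BMS961, against 9.63 and 9.46 with vehicle. Fst, which encodes the activin antagonist follistatin, stood at 6.66, 6.48, 5.61 and 5.98 with BMS961, against 7.88 and 8.15 with vehicle. Both were thus lower at each time than on either vehicle array, and both went lower again by 24 h. Otx2 was 2.87 times lower than the nearer vehicle array at 2 h and 8.42 times lower at 48 h, and Fst 2.33 and 3.72 times lower.

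**Figure D2:**
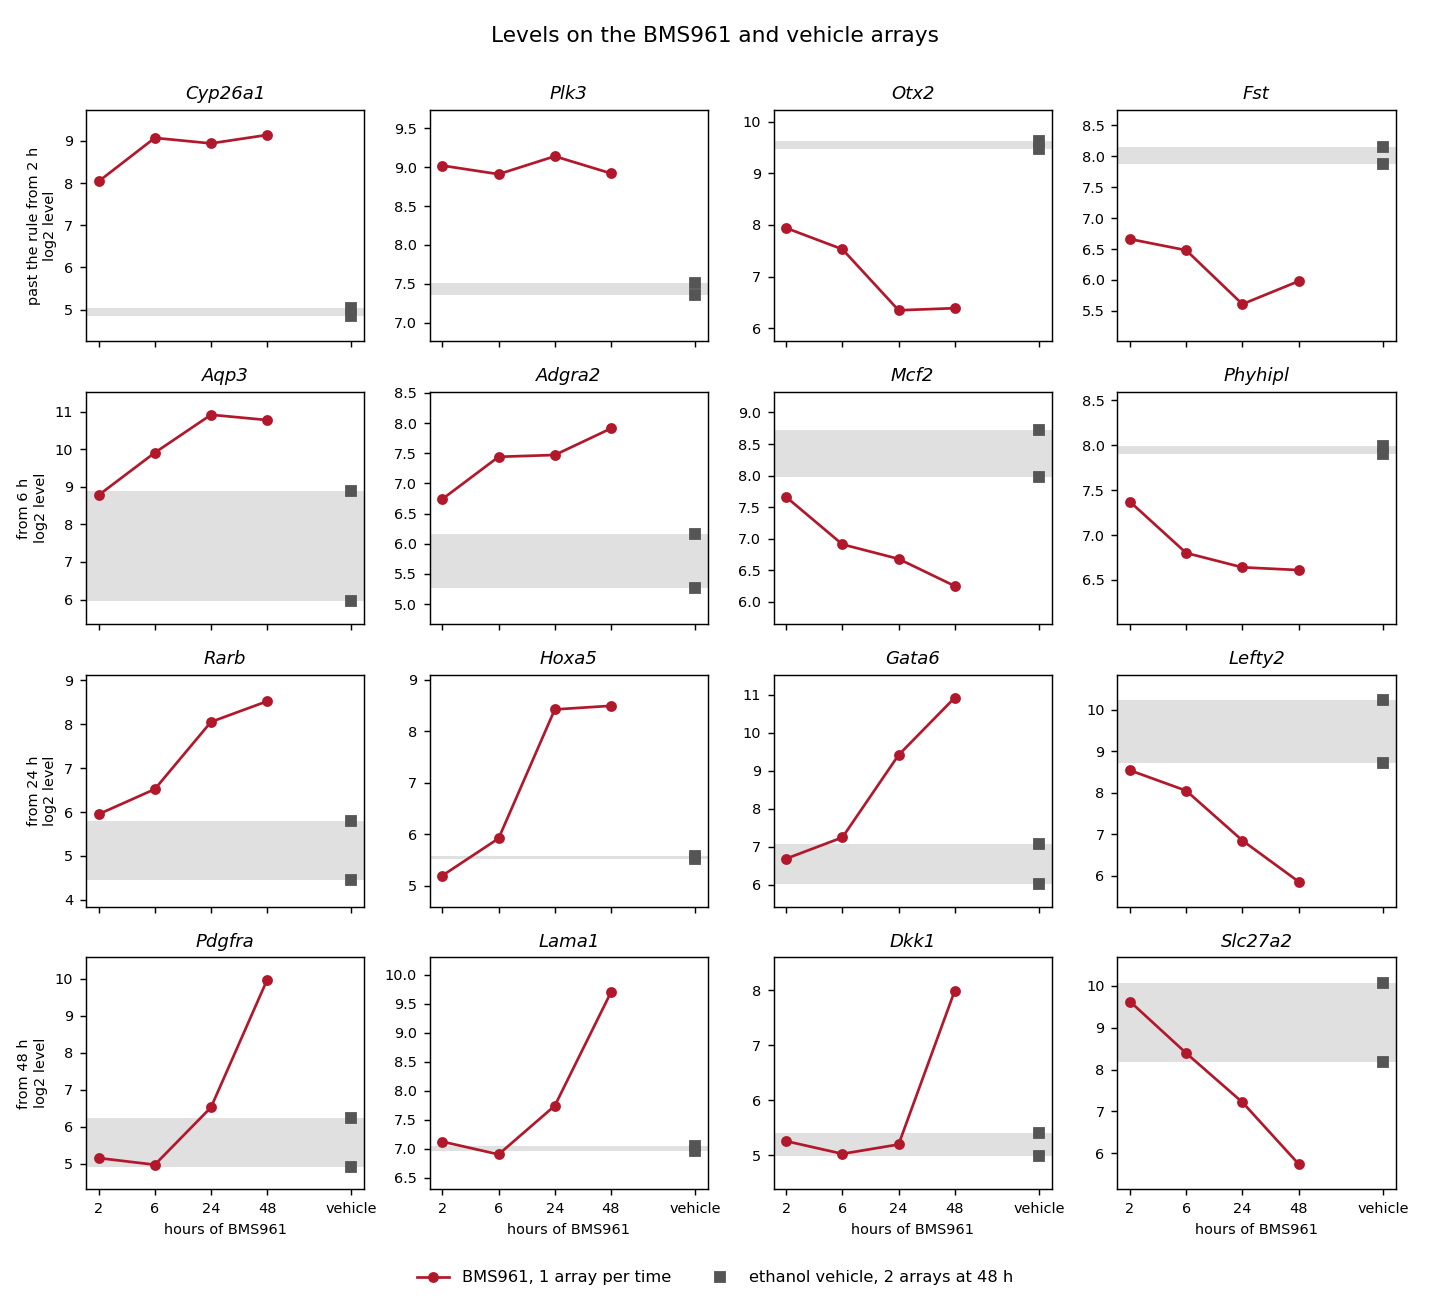
Log2 levels of 16 named genes by hours of BMS961 (circles joined by a line, 1 array per time) beside the 2 vehicle arrays (squares, with a grey band spanning them), in panels set out by the time from which each gene is past the 2-fold rule. The top panels are separated from vehicle at 2 h (Cyp26a1 at 8.04 against 5.05 and 4.85), and those at the bottom are past the rule at 48 h only (Dkk1 at 7.99 against 5.41 and 4.99).

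Gadd45b, C2cd2l and Hbegf were the other genes higher at 2 h. Gadd45b, which encodes a growth arrest and stress protein, stood at 9.01, 8.83, 8.59 and 8.89 with BMS961, against 7.76 and 7.33 with vehicle, and only the 24 h level was under the 2-fold rule. Hbegf, a ligand of the EGF receptor, stood at 9.63, 9.67, 9.06 and 8.91, against 8.63 and 8.16 with vehicle. C2cd2l stood at 7.28, 7.02, 6.58 and 6.55, against 6.11 and 5.74 with vehicle. For Hbegf and C2cd2l the distance from vehicle thus narrowed after 6 h, while all 4 BMS961 levels remained above both vehicle arrays. Just short of the rule at 2 h on the lower side were Gm8624 (0.89 below the nearer vehicle array), Zbtb10 (0.82 below) and Galns (0.75 below).

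A lasting difference began at 6 h for Aqp3, Adgra2, Cdk15, Nt5e, Itga3 and Pptc7, which were higher (0.0301%), and for Mcf2 and Phyhipl, which were lower (0.01%), a split of 6 and 2 that was 10 and 13 without vehicle replicate 2. Several of these encode cell-surface proteins: Aqp3 a water and glycerol channel, Adgra2 an adhesion G protein-coupled receptor, Nt5e the ecto-enzyme CD73 and Itga3 an integrin chain. Adgra2 stood at 6.74, 7.44, 7.47 and 7.91 with BMS961, against 6.16 and 5.27 with vehicle. Nt5e stood at 6.76, 7.99, 8.11 and 8.62, against 6.89 and 6.32 with vehicle. Adgra2 was already above both vehicle arrays at 2 h, whereas Nt5e lay between them then and left their range at 6 h.

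Aqp3 stood at 8.78, 9.91, 10.92 and 10.78 with BMS961, against 8.88 and 5.95 with vehicle. Its vehicle levels lay far apart, and although it was 2.04 above the nearer one at 24 h it did not pass the test described further on (adjusted p = 0.0574 late, in limma). Cdk15, a cyclin-dependent kinase family member, stood at 5.42, 6.17, 7.38 and 6.85, against 5.12 and 4.58 with vehicle, and was highest at 24 h. Itga3 stood at 7.81, 8.48, 8.53 and 8.89, against 7.47 and 7.29 with vehicle, and passed the rule at 6 h by a distance of 1.01. Mcf2, a guanine nucleotide exchange factor gene, stood at 7.66, 6.91, 6.68 and 6.25, against 8.72 and 7.98 with vehicle. Phyhipl stood at 7.37, 6.80, 6.64 and 6.61, against 7.99 and 7.90 with vehicle, so both lower genes were below vehicle at every time.

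The genes of passing difference were furthest from vehicle at 6 h in most cases and came back towards it later. Elavl3, a neuronal RNA-binding protein gene, stood at 8.07, 8.39, 7.79 and 7.31 with BMS961, against 6.70 and 7.13 with vehicle. Pim1, a serine/threonine kinase gene, stood at 9.94, 10.28, 9.05 and 8.58, against 9.16 and 8.07 with vehicle, and was inside the vehicle range at 24 h and 48 h. The others on the higher side were Hbegf, C2cd2l, Plpp2 and Eras, with distances of 1.01 to 1.17 at the time each was furthest from vehicle. On the lower side were Lrrc34, Irak3, Slco4c1, Abca1 and Cachd1, past the rule at 6 h alone by distances of 1.05 to 1.22. Abca1, the cholesterol exporter, stood at 8.41, 7.84, 8.20 and 8.35 with BMS961, against 9.12 and 8.89 with vehicle, and remained below both vehicle arrays throughout. Abca1 and Irak3 also fell late (24 h and 48 h pooled) in the limma fit described further on, Abca1 by 0.73 (adjusted p = 0.0425). A passing difference is thus one that was short of 2-fold later, and not always one that was gone.

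A few genes were past the rule at 6 h and 24 h and no longer at 48 h; chosen after their values were seen, these were Lgals9, Cpne5 and Sfrp4. Lgals9, which encodes the lectin galectin-9, stood at 7.20, 8.25, 7.74 and 7.02 with BMS961, against 5.84 and 6.70 with vehicle, with its highest level at 6 h. Zbtb10 and Cyp7b1 were past the rule in both directions. Zbtb10, a zinc finger protein gene, stood at 6.61, 6.28, 8.11 and 9.14 with BMS961, against 7.87 and 7.43 with vehicle, so that it was below both vehicle arrays at 2 h and 6 h and above both at 24 h and 48 h. Cyp7b1, an oxysterol hydroxylase gene, stood at 5.88, 5.01, 6.62 and 7.23, against 6.02 and 6.16 with vehicle, a like order of levels.

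A lasting difference began at 24 h for 64 higher genes (0.321%) and 14 lower genes (0.0702%). The higher genes furthest from vehicle at 48 h among them were Fbp2, Gata6, Hoxa5, Dhrs3 and Rarb. Rarb, the receptor gene that retinoids induce, stood at 5.95, 6.52, 8.05 and 8.52 with BMS961, against 5.79 and 4.45 with vehicle. It was 4.81-fold above the nearer vehicle array at 24 h and 6.66-fold at 48 h, and 41.2% of its 48 h difference was present at 6 h. Dhrs3, which reduces retinaldehyde to retinol, stood at 5.78, 6.56, 8.07 and 8.66, against 5.78 and 4.96 with vehicle. Stra6, the receptor for the plasma retinol carrier, stood at 6.25, 6.53, 7.85 and 7.66, against 6.06 and 5.65 with vehicle. Crabp2, which carries retinoic acid to the nucleus, stood at 6.58, 6.64, 8.59 and 7.97, against 5.81 and 6.19 with vehicle. Each of these was near or above the vehicle range at 2 h and 6 h and clear of it at 24 h, and Stra6 and Crabp2 were higher at 24 h than at 48 h.

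Among 17 measured retinoid metabolism genes, 4 were past the rule at 24 h and the same number at 48 h, all higher. Over all genes 0.466% and 1.01% were higher at those times. In the limma fit described further on, 3 of the 17 rose late (Cyp26a1, Dhrs3 and Stra6, where late means 24 h and 48 h pooled). Cyp26b1 and Cyp26c1, the other retinoic acid hydroxylases, were within 0.18 of the nearer vehicle array or inside the vehicle range at 24 h and 48 h. Of 10 receptor and coregulator genes, Rarb and Nrip1 rose late, and Nrip1, a ligand-dependent corepressor, stood at 7.85, 8.20, 8.57 and 8.12 with BMS961, against 7.32 and 7.13 with vehicle. Rarg, the gene of the receptor that BMS961 binds, stood at 9.53, 9.50, 9.37 and 8.94, against 8.90 and 9.09 with vehicle, and did not pass the test late (adjusted p = 0.794 in limma). A list of 21 known early retinoid targets, which overlaps those lists, had a median difference from the vehicle mean of 0.18 at 2 h, 0.32 at 6 h, 1.32 at 24 h and 0.95 at 48 h. Over all genes the same medians were 0.08, 0.01, -0.03 and 0.04. In that list 8 genes rose late and none fell, against 0.818% and 0.446% of all genes. The list was chosen with earlier results of these data known, so its medians and counts are a description.

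Cyp26a1 was past the rule from 2 h and Rarb from 24 h, and the upstream sequences of both are shown because each holds the classical retinoid response motif near its start. The direct repeat with a spacing of 5 bases (DR5), a known binding pattern of receptor heterodimers, was searched on both strands of each RefSeq promoter window (GRCm38.p6, a window that spans each gene's start). It was found in 32 of 32851 windows (0.0974%), which belong to 31 of 27025 genes (0.115%). Of the 208 genes of lasting difference with a sequence in that table, 2 held it (0.962%), and these were Cyp26a1 and Rarb. The 150 bases upstream of each start follow, 5′ to 3′ on the gene's strand, with the 17 bases of the match in capitals. The Cyp26a1 stretch lies on the forward strand at chr19:37697658-37697807, with the match at -32 to -16 from the start and read on the opposite strand. The Rarb stretch lies on the reverse strand at chr14:16575477-16575626, with the match at -53 to -37 on the gene's own strand.
Cyp26a1: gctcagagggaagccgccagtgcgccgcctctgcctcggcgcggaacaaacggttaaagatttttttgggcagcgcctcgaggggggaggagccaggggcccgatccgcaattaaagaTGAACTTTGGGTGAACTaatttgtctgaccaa
Rarb: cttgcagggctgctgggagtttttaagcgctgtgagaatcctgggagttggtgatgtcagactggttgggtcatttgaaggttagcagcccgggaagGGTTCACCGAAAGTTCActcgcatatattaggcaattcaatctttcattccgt
A match describes the letters and is not by itself a bound site, and the windows without one hold no such letters in that stretch only.

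Among Hox genes, which give cells their position along the body axis, Hoxa5 had the largest difference. It stood at 5.20, 5.92, 8.42 and 8.49 with BMS961, against 5.57 and 5.52 with vehicle, so that it was below vehicle at 2 h and 7.25-fold above the nearer vehicle array at 24 h. Of 19 measured genes of the A and B clusters, 3 were past the rule at 24 h (Hoxa5, Hoxb2 and Hoxb4) and 2 at 48 h, all higher. Over all genes 0.466% and 1.01% were higher at those times. Hoxa5 and Hoxb4 rose late. Hoxb4 stood at 4.98, 5.55, 6.21 and 6.18, against 5.04 and 4.81 with vehicle. Hoxb2 stood at 5.48, 5.15, 6.93 and 6.08, against 5.21 and 5.16 with vehicle, and was furthest from vehicle at 24 h. Of 18 measured genes of the C and D clusters, 0 were past the rule at any time and 0 passed in limma, with 0 at an unadjusted p under 0.05 late, against 11.6% of all genes. Over all genes 311 of 19938 were past the rule at any time. Of the cofactors that bind DNA with Hox proteins (8 measured), Meis2 and Pbx2 rose late, against 0.818% of all genes. Meis2 stood at 6.80, 7.28, 8.40 and 8.53 with BMS961, against 7.02 and 6.95 with vehicle. Meis1 stood at 4.92, 5.04, 7.07 and 7.51, against 4.93 and 5.16 with vehicle, and its adjusted p in limma was 0.0688.

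Metabolic enzyme genes were among the largest differences from 24 h on. Fbp2, a fructose-1,6-bisphosphatase gene of the gluconeogenic pathway, stood at 6.11, 6.73, 9.44 and 11.33 with BMS961, against 7.35 and 6.38 with vehicle, and was 15.8-fold above the nearer vehicle array at 48 h. Fbp1, its liver-type relative, stood at 4.84, 5.20, 6.83 and 6.82, against 4.85 and 4.52 with vehicle, with no further gain after 24 h. Cyp11a1, which makes pregnenolone from cholesterol, stood at 5.92, 6.66, 8.78 and 8.50, against 6.04 and 5.75 with vehicle. Of 12 measured steroid synthesis genes, Cyp11a1 and Fdx1, the ferredoxin that feeds it electrons, rose late. Over all genes 0.818% rose late and 0.446% fell. Nr5a1, a nuclear receptor gene known as a regulator of steroidogenic enzymes in gonad and adrenal, fell late, and stood at 7.73, 7.04, 6.74 and 6.48 with BMS961, against 8.06 and 7.83 with vehicle. Thus the list moved in both directions, with a median late difference of 0.02.

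The 14 genes lower from 24 h on were led at 48 h by Enpp3, Trh, Lefty2, Platr8 and Enox1. Trh, which encodes thyrotropin-releasing hormone, stood at 11.88, 11.51, 9.09 and 8.26 with BMS961, against 11.17 and 12.05 with vehicle, so it lay inside the vehicle range at 2 h and 6 h and 4.23 times below the nearer vehicle array at 24 h. Enpp3, an ecto-nucleotide pyrophosphatase gene, stood at 8.71, 8.06, 7.43 and 6.09, against 9.01 and 9.02 with vehicle, and was lower at each later time. Platr8, a long non-coding RNA named for its link to pluripotency, stood at 5.81, 5.26, 3.70 and 3.17, against 5.39 and 6.49 with vehicle. Enox1 stood at 8.60, 8.31, 7.19 and 6.14, against 8.31 and 8.62 with vehicle, and likewise left the vehicle range at 24 h.

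Of the primitive and parietal endoderm list, Fst was lower from 2 h on, Gata6 was higher from 24 h on, and the other members past the rule reached it at 48 h. Gata6, a zinc finger factor that specifies primitive endoderm, stood at 6.69, 7.25, 9.42 and 10.93 with BMS961, against 7.08 and 6.03 with vehicle. It was above the nearer vehicle array by 2.34 at 24 h and 3.84 at 48 h, and 65.6% of its 48 h difference was present at 24 h. Gata4, its relative, stood at 6.02, 6.20, 7.09 and 9.17, against 7.26 and 6.28 with vehicle, and was below both vehicle arrays at 2 h and 6 h, between them at 24 h and above both at 48 h. Pdgfra, the PDGF receptor alpha gene that marks primitive endoderm, stood at 5.16, 4.98, 6.53 and 9.98, against 6.24 and 4.92 with vehicle, which is 13.4-fold above the nearer vehicle array at 48 h with 21.6% of that difference present at 24 h. Lama1, a laminin chain of the basement membrane that parietal endoderm lays down, stood at 7.12, 6.90, 7.74 and 9.70, against 7.04 and 6.96 with vehicle. Gata6 was therefore past the rule a sampled time before these genes. For Pdgfra this order rests on vehicle replicate 1 (6.24). Against replicate 2 alone (4.92) Pdgfra was already more than 2-fold higher at 24 h (6.53).

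Of the 26 measured genes of this list, 1 was past the rule on the higher side at 24 h (Gata6) and 10 were at 48 h, against 0.466% and 1.01% of all genes. Those 10 were Gata4, Gata6, Pdgfra, Dab2, Foxq1, Lama1, Lamb1, Plat, Vim and Cubn, and Fst was lower. The median difference of the list from the vehicle mean was -0.18, -0.18, 0.13 and 1.32 at 2 h, 6 h, 24 h and 48 h. Vehicle replicate 1 was higher than replicate 2 over the list by a median of 0.53. Against replicate 1 alone the medians were -0.44, -0.50, -0.16 and 0.94, and against replicate 2 alone 0.05, -0.01, 0.31 and 1.44. In limma, which pools 24 h and 48 h, 1 gene of the list rose late (Gata6) and 1 fell (Fst), and 10 of 26 had an unadjusted p under 0.05, as did 11.6% of all genes late. Pdgfra differed late by 2.68 ± 0.69 (SE; adjusted p = 0.102 in limma). Dab2 was measured by a pair of probe sets that disagreed, with differences from the vehicle mean at 48 h of 2.89 and 0.18, and the first was used.

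Other genes past the rule only at 48 h included secreted and membrane proteins. Dkk1, which encodes a secreted WNT antagonist, stood at 5.26, 5.03, 5.20 and 7.99 with BMS961, against 5.41 and 4.99 with vehicle, so 3 of 4 levels were inside the vehicle range and the last was 6.02-fold above it. Foxq1, a forkhead factor gene, stood at 5.42, 5.95, 6.16 and 8.78, against 6.23 and 5.57 with vehicle. Gpr50, an orphan receptor gene related to the melatonin receptors, stood at 4.17, 4.14, 4.53 and 6.51, against 4.13 and 4.09 with vehicle. Each of the 3 showed most of its difference in the step between 24 h and 48 h. Of the 24 measured genes of the basement membrane and matrix assembly list, 3 were past the rule at 48 h (Lama1, Lamb1 and P4ha1), and 0 passed late in limma, with 8 of 24 at an unadjusted p under 0.05, against 11.6% of all genes. Of 19 visceral endoderm genes, Dkk1 and Amot were past the rule at 48 h, both higher, and Apoe fell late in limma. Over all genes 1.01% were higher at 48 h.

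The 52 genes lower from 48 h on (0.261%), against 130 higher (0.652%; with arrays centred, 71 lower and 110 higher), were led by Slc27a2, Socs2, Adam23, Mir363 and Myb. Slc27a2, a fatty acid transporter and acyl-CoA synthetase gene, stood at 9.62, 8.39, 7.22 and 5.75 with BMS961, against 8.17 and 10.07 with vehicle. Socs2, a feedback inhibitor of cytokine signalling, stood at 9.01, 8.84, 7.91 and 6.81, against 8.91 and 9.74 with vehicle, and at 24 h it was at the edge of the rule (1.00 below the nearer vehicle array). Myb, a transcription factor gene of proliferating progenitors, stood at 7.35, 6.72, 6.24 and 5.27, against 7.12 and 7.90 with vehicle. Adam23, a disintegrin family gene, stood at 9.58, 9.41, 8.72 and 7.42, against 9.41 and 9.55 with vehicle. All of these were already below both vehicle arrays at 24 h and lower again at 48 h.

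Mir363 is a microRNA gene of the X-linked miR-106a to miR-363 cluster, and its probe set is annotated to the gene and not to a mature strand. Its mature 3p strand is shown because its seed is what would define its targets; it lies at chrX:52741697-52741718 on the reverse strand (RefSeq, GRCm38.p6), with bases 2 to 8 in capitals.
miR-363-3p: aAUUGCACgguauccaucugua
The Mir363 probe set stood at 6.09, 5.81, 5.70 and 4.54 with BMS961, against 7.20 and 6.43 with vehicle. It was below both vehicle arrays at every time, and 1.89 below the nearer one at 48 h. Its measured cluster neighbours Mir92-2, Mir19b-2, Mir20b and Mir106a were below the nearer vehicle array at 48 h by 0.11, 0.50, 0.13 and 0.55. They stood at 3.96, 3.74, 3.93 and 4.36 at 48 h of BMS961. Vehicle replicate 1 had them at 4.65, 5.65, 5.26 and 6.54, and replicate 2 at 4.07, 4.25, 4.05 and 4.91. Levels this low on replicate 2 may leave little room for a fall. The rule therefore cannot tell if Mir363 moved apart from its cluster.

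Most pluripotency genes stayed within 2-fold of vehicle over the 48 h. Of 25 measured pluripotency genes, Tdgf1 alone was past the rule, at 48 h, where it was lower. Over all genes 0.351% were lower at 48 h and 1.36% were past the rule in either direction. Staying within 2-fold was thus not particular to this list. The median difference of the list from the vehicle mean was -0.34 at 24 h and at 48 h. At 48 h it was -0.44 against replicate 1 alone and -0.14 against replicate 2 alone. In limma 11 of the 25 had an unadjusted p under 0.05 late, against 11.6% of all genes. Pou5f1 (Oct4) stood at 12.19, 12.09, 11.94 and 11.87 with BMS961, against 12.20 and 12.08 with vehicle. Nanog stood at 11.84, 11.82, 11.78 and 11.63, against 12.07 and 11.08 with vehicle, inside the vehicle range throughout. Utf1, Tcl1 and Gdf3 fell late in limma, by less than 2-fold. Utf1, a chromatin-associated factor of undifferentiated cells, stood at 10.83, 10.76, 9.97 and 10.02, against 10.98 and 10.86 with vehicle, and fell by 0.93 ± 0.11 (SE; adjusted p = 0.00252 in limma).

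Among 11 epiblast genes, Otx2, Foxd3 and Dnmt3l fell late and Dnmt3a rose, against 0.446% and 0.818% of all genes. The DNA methyltransferase genes went opposite ways: Dnmt3a stood at 9.04, 9.64, 9.66 and 10.47 with BMS961, against 8.75 and 8.24 with vehicle. Dnmt3l, the catalytically inactive partner of the de novo enzymes, stood at 10.39, 9.72, 7.73 and 7.01, against 9.03 and 10.49 with vehicle. Dnmt3b stood at 9.21, 8.88, 7.68 and 8.41, against 7.88 and 9.43 with vehicle, and was inside the vehicle range at 48 h.

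Lefty2 and Tdgf1 of the NODAL pathway, which maintains the epiblast and is restrained by Lefty proteins, were lower at 48 h. Lefty2, a NODAL antagonist and target, stood at 8.54, 8.05, 6.85 and 5.86 with BMS961, against 10.24 and 8.71 with vehicle, 7.25 times below the nearer vehicle array at 48 h. Tdgf1, the NODAL co-receptor also known as Cripto, stood at 12.13, 12.18, 11.33 and 10.22, against 11.98 and 11.82 with vehicle. Id3, a target of BMP signalling, stood at 8.39, 8.47, 7.01 and 5.89, against 7.15 and 7.89 with vehicle, above both vehicle arrays at 2 h and 6 h and below both at 24 h and 48 h. Of the 23 genes of the NODAL, BMP and TGF-beta list, 4 were past the rule at 48 h, all lower (Lefty2, Tdgf1, Fst and Id3). Over all genes 0.351% were lower at 48 h. In limma Lefty2 and Fst fell late and Smad6 and Tgfbr2 rose, each of the last by less than 2-fold. Nodal itself stood at 9.82, 9.63, 9.23 and 8.84, against 9.40 and 8.90 with vehicle.

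Lists of other programmes held few or no genes past the rule. None of the genes measured for DNA replication (23), mitosis (21), cholesterol synthesis (16), hypoxia and glycolysis (18), immediate early and stress response (19), ribosomal proteins (12) or fibroblast identity (16) was past it at any time. None of these 7 lists held a gene that passed late in limma, with between 0 of 12 (ribosomal proteins) and 5 of 16 (cholesterol synthesis) at an unadjusted p under 0.05, against 11.6% of all genes. For cholesterol synthesis the medians depended on the vehicle array: 1.03 to 1.17 against replicate 1 alone and -0.06 to 0.12 against replicate 2 alone. Of the 14 CDK inhibitor and growth arrest genes, Gadd45b rose early and late, against 0.0351% and 0.818% of all genes. Of the 20 neural genes Elavl3 was past the rule, at 6 h, and of the 20 mesoderm and primitive streak genes Eomes and Msx2 were, at 48 h, of which Msx2 rose late. In the FGF and ERK feedback list (19 genes), Spry2 and Dusp4, feedback inhibitors of ERK signalling, were past the rule at 24 h alone, both lower. Over all genes 0.0802% were higher at 6 h, 0.125% lower at 24 h and 1.01% higher at 48 h. Fgfr2, an FGF receptor gene of that list, was past it at 48 h, at 6.95, 6.76, 7.35 and 9.06 with BMS961, against 6.48 and 7.09 with vehicle.

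**Figure D3:**
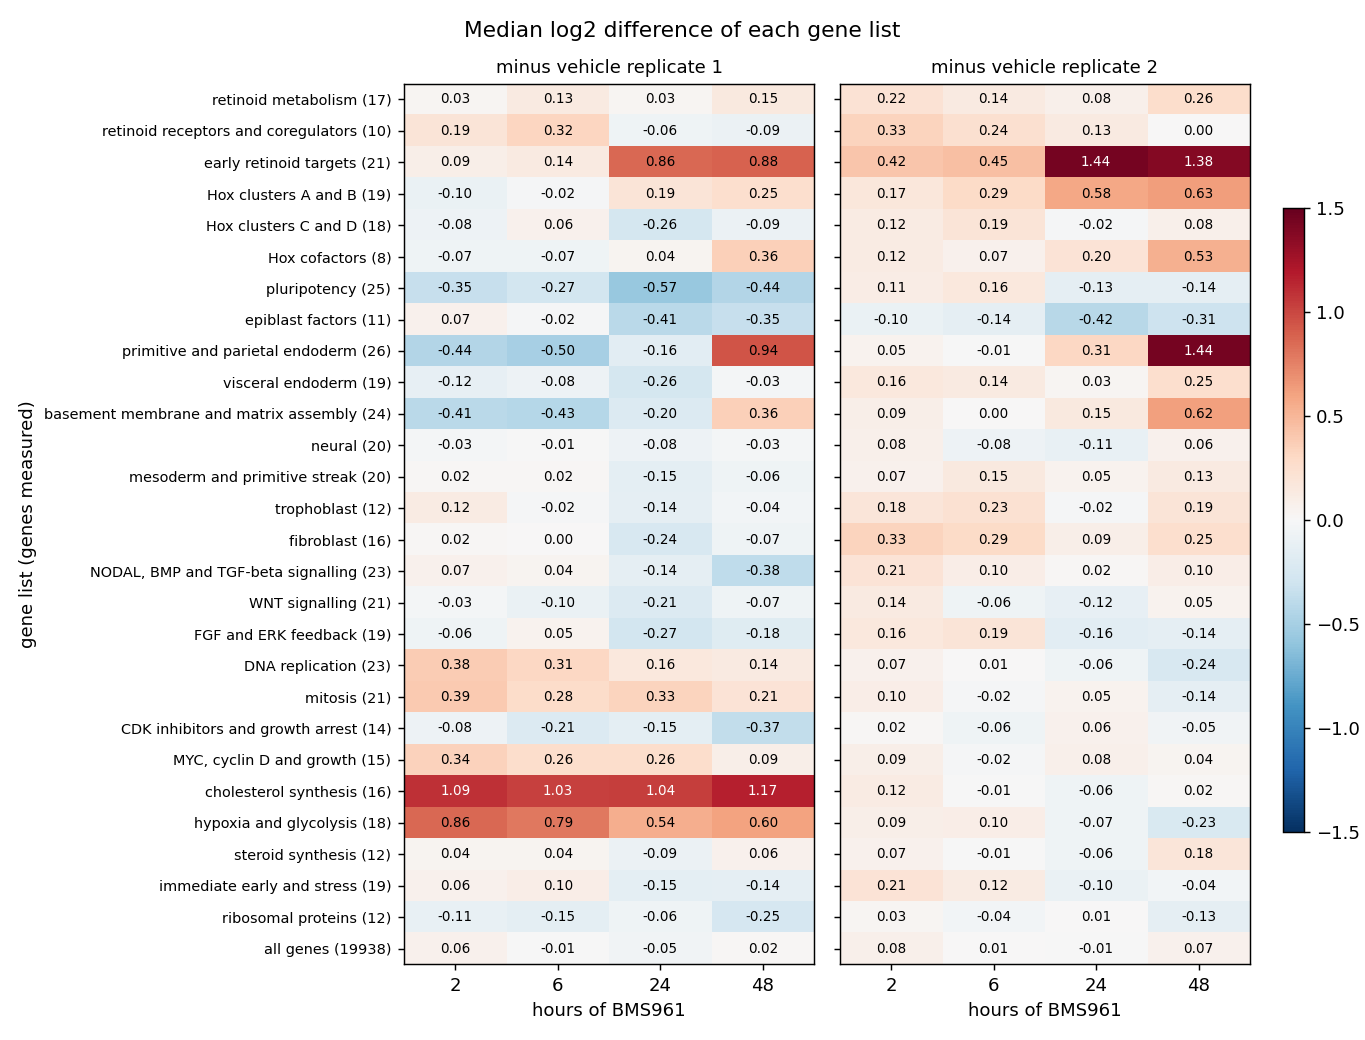
Median log2 difference of each gene list (rows, with the number of genes measured) at each BMS961 time (columns), against vehicle replicate 1 and against vehicle replicate 2. Early retinoid targets are at 0.86 or more at 24 h and 48 h in both panels and primitive and parietal endoderm at 0.94 and 1.44 at 48 h, whereas cholesterol synthesis is above 1 against replicate 1 only.

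The genes past the rule at 48 h were followed back in time as a group. For the 202 higher genes the median difference from the vehicle mean was 0.06, 0.09, 0.99 and 1.60 at 2 h, 6 h, 24 h and 48 h. The median gene had 2.77% of its 48 h difference at 2 h, 6.22% at 6 h and 65.1% at 24 h. The 70 lower genes had medians of -0.02, -0.37, -0.87 and -1.64, which for the median gene was 1.43%, 23.7% and 56.3% of the 48 h difference. At 6 h, 42 of the 70 lower genes and 82 of the 202 higher genes were already outside the vehicle pair on the same side. At 24 h, 63 of the 70 and 178 of the 202 were. The beginning of a lasting difference is thus the time of crossing 2-fold, and not that of first leaving the vehicle range. These genes were chosen by their 48 h values, so the 48 h medians are fixed by the choice and the earlier ones are a description.

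Between successive BMS961 arrays, which involve no vehicle array, the step with most genes at 2-fold or more was that between 6 h and 24 h. From 2 h to 6 h, 9 genes went up and 3 down by at least 2-fold. From 6 h to 24 h, 157 went up and 38 down, and from 24 h to 48 h 95 went up and 37 down. Among the 202 genes higher at 48 h, the largest step was the one between 6 h and 24 h for 115, between 24 h and 48 h for 75 and between 2 h and 6 h for 12.

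**Figure D4:**
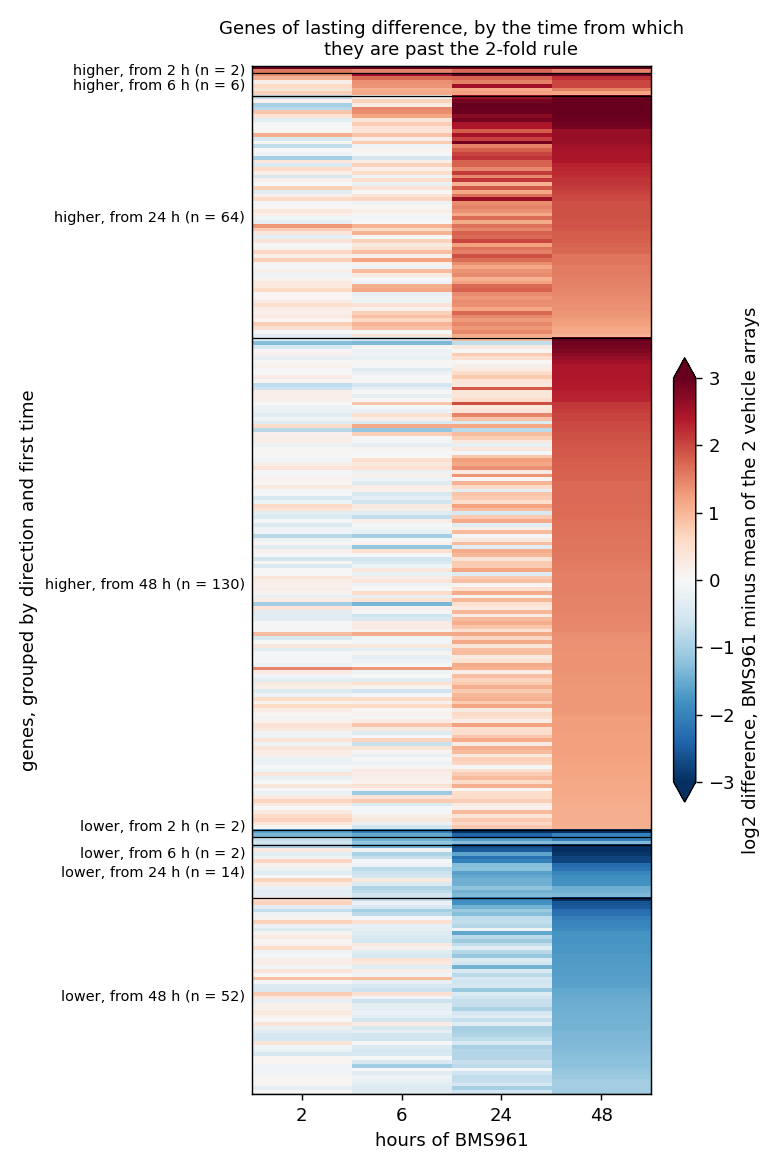
Log2 difference of BMS961 from the mean of the vehicle arrays at each time (columns) for every gene of lasting difference (rows), grouped by direction and by the time from which the gene stays past the 2-fold rule. The bands for 2 h and 6 h hold 4 and 8 genes and those for 24 h and 48 h 78 and 182, and most genes of the 48 h band are pale at 24 h or earlier.

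A test was possible only with pairs of times pooled: a limma fit over all 18 arrays compared early (2 h and 6 h) and late (24 h and 48 h) BMS961 with vehicle, with steps within each pair of times common to all retinoids. Its p-values rest on the vehicle pair and on departures from those common steps, not on repeated cultures. Early, 7 genes rose (0.0351%) and 1 fell (0.00502%), a split that was 1 and 2 with quantile normalization and 1 and 1 with arrays centred. Cyp26a1 rose by 3.60 ± 0.31 (SE; adjusted p = 0.0022), Plk3 by 1.53 ± 0.21, Gadd45b by 1.38 ± 0.18, and Fst fell by 1.45 ± 0.16 (adjusted p = 0.0115). The other genes called, named because they passed, were Sntb2, Lipe, Oxnad1 and Slc26a2, whose rises of 0.88 to 0.92 were under 2-fold. Otx2 differed early by -1.81 ± 0.38 and did not pass (adjusted p = 0.316). The early calls depended on single arrays: in place of 8 there was 1 without the 2 h array, 0 without the 6 h, 2 without the 24 h and 2 without the 48 h array, and there were 1441 without vehicle replicate 2. Without the 6 h array Cyp26a1 had an adjusted p of 0.11 in limma.

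Late, 163 genes rose (0.818%) and 89 fell (0.446%), a split that was 156 and 131 with quantile normalization and 125 and 96 with arrays centred. Of the 252 genes, 142 differed by at least 2-fold. Hoxa5 rose by 2.91 ± 0.18 (SE; adjusted p = 5.18e-05), Fst fell by 2.22 ± 0.16 (adjusted p = 0.000119), and Cyp26a1 and Cyp11a1 each had an adjusted p of 0.000178. These genes passed in limma under every alternative tried, and Otx2 (-3.18 ± 0.38) under every one except without the 24 h array, where its adjusted p was 0.0706. Gata6 (3.62 ± 0.51, adjusted p = 0.00629) and Lefty2 (-3.12 ± 0.46, adjusted p = 0.00753) did not pass without the 24 h or the 48 h array, nor with BMS961 and vehicle arrays only (adjusted p = 0.0659 for Gata6 and 0.0835 for Lefty2 in limma). Among them 121 were also past the 2-fold rule at 48 h in the same direction. Without the 24 h array 19 genes were called late and without the 48 h array 33. Without vehicle replicate 1 there were 716 and without replicate 2 815.

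The difference between late and early was itself tested, and 100 genes were higher late than early (0.502%) and 53 lower (0.266%). The largest rises were those of Fbp2 (3.97 ± 0.49), Gata6 (3.20 ± 0.51), Aard (3.06 ± 0.29), Hoxa5 (2.89 ± 0.18) and Anxa5 (2.54 ± 0.44). Anxa5, a phospholipid-binding annexin, stood at 6.41, 6.78, 8.86 and 9.40 with BMS961, against 7.99 and 6.06 with vehicle. Aard stood at 5.61, 6.10, 8.76 and 9.06, against 7.13 and 6.08 with vehicle, and like Anxa5 was within or below the vehicle range early. The largest falls were those of Trh (-3.02 ± 0.48), Dnmt3l (-2.69 ± 0.41), Slc27a2 (-2.52 ± 0.48), Ntn1 (-2.11 ± 0.23) and Platr8 (-2.10 ± 0.35). Ntn1, which encodes the guidance cue netrin-1, stood at 8.93, 8.54, 6.81 and 6.43, against 7.85 and 8.66 with vehicle. For Cyp26a1, Plk3 and Gadd45b no difference between late and early passed (0.49 ± 0.31, 0.07 ± 0.21 and -0.18 ± 0.18). Of the 153 genes, 1 was called in the same direction without the 2 h array, 9 without the 6 h, 8 without the 24 h and 4 without the 48 h array, and 767 calls were made with each vehicle replicate left out in turn. Hoxa5 passed under every alternative tried.

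**Figure D5:**
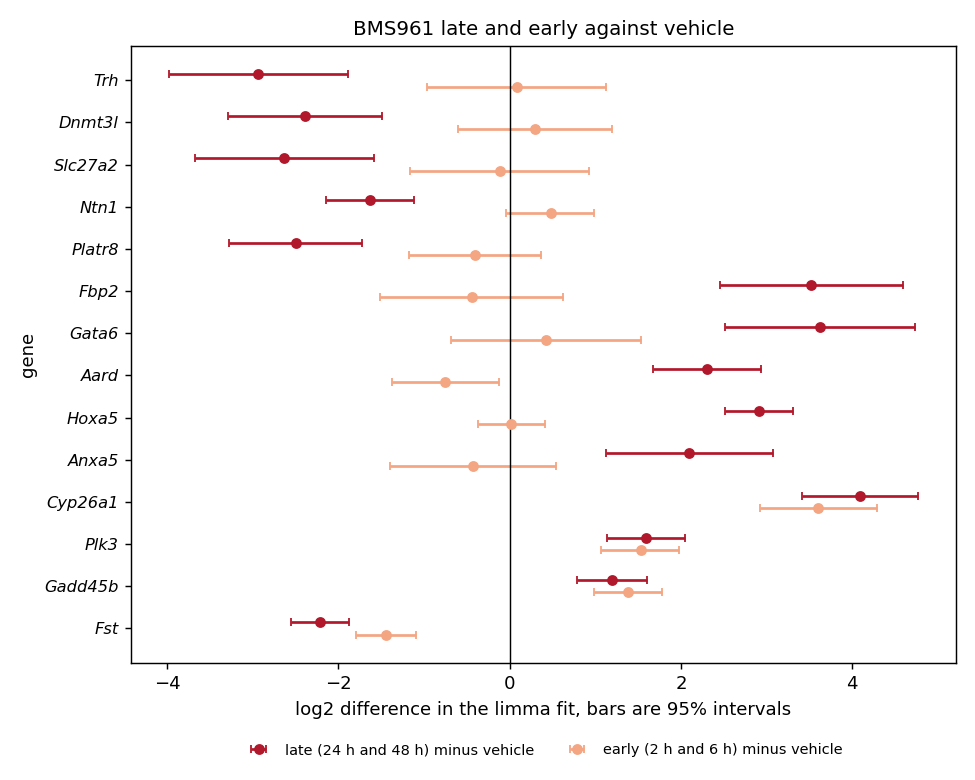
Log2 difference of BMS961 late (24 h and 48 h, dark) and early (2 h and 6 h, pale) from vehicle in the limma fit, with 95% intervals, for the genes with the largest difference between late and early and for the 4 genes called early and changed at least 2-fold. Hoxa5 is at 2.91 late and 0.02 early, while Cyp26a1 is at 4.09 late and 3.60 early.

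ATRA was given at 1 µM, above the 0.1 µM of BMS961, so its values are set beside those of BMS961 without a comparison. At 2 h, 6 h, 24 h and 48 h Cyp26a1 stood at 8.04, 9.07, 8.94 and 9.14 with 0.1 µM BMS961 and at 10.06, 10.30, 10.97 and 12.01 with 1 µM ATRA. Lefty2 stood at 8.54, 8.05, 6.85 and 5.86 with BMS961 and at 9.85, 9.55, 10.31 and 11.02 with ATRA. The arrays may also differ as sets: over 12146 probe sets without a listed gene, vehicle replicate 1 deviated with the ATRA arrays (mean r 0.322) and not with the BMS961 arrays (mean r -0.159), and its part in these values was not tested.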

How the data were processed

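Total RNA from F9 cells was labelled and hybridised to Affymetrix whole-transcript arrays, 1 per sample. The authors deposited log2 values for 35556 probe sets, made with RMA in Affymetrix Expression Console 1.1, per the submitters' processing notes. RMA corrects background, normalizes arrays by quantiles and summarises probes, and the set of arrays normalized in 1 run is not given in the sources used here. These deposited log2 values run from 2.05 to 14.36 and their number per group, 1 array per BMS961 time and 2 for vehicle, limits the precision. Probe sets with 1 symbol (21789) were updated through Entrez identifiers (21698 matched) and gave 19938 genes. Where a gene had more than 1 probe set (999 genes), that of highest mean level stood for it. Probe sets with several symbols (1621) or none listed (12146) were left out of the gene counts.

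Differences were taken against each vehicle array and their mean. The limma fit (limma 3.58.1, R 4.3.3) used 9 group means and common steps from 2 h to 6 h and from 24 h to 48 h on all 18 arrays, with 7 residual degrees of freedom (prior 4.55) and Benjamini-Hochberg adjusted p under 0.05. On simulated data with 19938 genes and independent noise on each array, the late comparison recovered 43.3% of 2-fold and 100% of 4-fold changes, with 3 false calls. Late against early had 11 false calls there. The simulation held no gap between the vehicle arrays beyond that noise. It therefore checks the code and does not give the error rates in these data. The genes named were the 5 furthest above and below the nearer vehicle array at each time, for each beginning of lasting difference and for passing differences, the 5 largest rises and falls between late and early, and members of 27 gene lists (445 of 482 members measured). The members and the lists were chosen with earlier results of these data known. Alternatives covered the fold threshold, the vehicle arrays, the normalization, dim genes, several probe sets, the variance model, the arrays in the fit and each array left out. Tables and plots were made with Python 3.11.15, pandas 2.3.3, numpy 2.4.6 and matplotlib 3.10.9.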

Additional observations from a re-analysis of the deposited data

Results flagged for a closer look

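Late and early BMS961 differences from vehicle were themselves different for 153 genes in limma (adjusted p under 0.05). The 5 largest rises between early and late were Fbp2 (3.97), Gata6 (3.20), Aard (3.06), Hoxa5 (2.89) and Anxa5 (2.54), in log2 units. The 5 largest falls were Trh (-3.02), Dnmt3l (-2.69), Slc27a2 (-2.52), Ntn1 (-2.11) and Platr8 (-2.10). All 10 had late levels on both BMS961 arrays beyond their early levels on both, in the direction of the call. They were picked by that difference on the same arrays, so this order is a description and no further check.

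The 12146 probe sets without a listed gene, which enter none of the gene counts, also held values at least 2-fold above both vehicle arrays: 48 at 2 h, 18 at 6 h, 28 at 24 h and 55 at 48 h. Those at least 2-fold below both numbered 72, 40, 20 and 95. Their share was 0.988% at 2 h, 0.478% at 6 h, 0.395% at 24 h and 1.23% at 48 h, in either direction. For the genes the shares were 0.0351%, 0.145%, 0.592% and 1.36%, so at 2 h and 6 h the probe sets without a listed gene passed the rule more often than the genes did.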

How the results depend on the processing

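Single genes were followed through the alternatives only if among the 5 furthest above or below vehicle at a time, or among 30 limma calls. None of these turned its direction, and the other named genes were not followed. Splits of counts did turn. Genes past the rule at 6 h were 16 higher and 13 lower, but 51 and 61 against the vehicle mean and 225 and 295 without vehicle replicate 2. Lasting differences from 6 h were 6 higher and 2 lower, but 10 and 13 without vehicle replicate 2 and 0 and 1 at 3-fold. Early calls in limma were 7 higher and 1 lower, but 1 and 2 with quantile normalization. Genes past the rule at 2 h, 6 h, 24 h and 48 h numbered 79, 163, 406 and 854 at 1.5-fold, 1, 2, 28 and 90 at 3-fold, and 60, 112, 245 and 509 against the vehicle mean. With 1 vehicle replicate left out they numbered 57 to 596, 147 to 520, 419 to 453 and 618 to 797. Lasting differences that began at 2 h, 6 h, 24 h and 48 h numbered 12, 45, 235 and 562 at 1.5-fold, 1, 1, 24 and 64 at 3-fold, and 12, 26, 148 and 323 against the vehicle mean. With 1 vehicle replicate left out they numbered 27 to 120, 23 to 68, 162 to 262 and 313 to 440, and quantile normalization gave 5 from 6 h. Passing differences numbered 107 at 1.5-fold, 0 at 3-fold, 71 against the vehicle mean and 45 to 422 with 1 vehicle replicate left out. Early calls in limma (8, with 1401 at an unadjusted p under 0.05) numbered 3 with quantile normalization, 2 with arrays centred, 0 with BMS961 and vehicle arrays only, 5 without common steps, 4 at least 2-fold, and 0 to 1441 with 1 array left out. Late calls (252) numbered 35 with BMS961 and vehicle arrays only, 142 at least 2-fold and 19 to 815 with 1 array left out. Calls between late and early (153) numbered 3 with BMS961 and vehicle arrays only, 69 without common steps, 101 at least 2-fold and 1 to 767 with 1 array left out. Late calls split into 163 higher and 89 lower as deposited, 156 and 131 with quantile normalization and 125 and 96 with arrays centred. The fits with fewer arrays have fewer residual degrees of freedom, and those with 1 vehicle replicate hold no spread of the vehicle pair. The cause of the larger counts without a vehicle replicate was not tested. For the 30 limma calls of named genes, 160 of 208 alternative values with all arrays of BMS961 and vehicle in the fit kept the call, and 101 of 180 with 1 array left out. No paired analysis was possible because BMS961 has 1 array per time. Time in culture and treatment cannot be told apart before 48 h.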

Other observations

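The genes here were chosen after their values were seen. Dsp, which encodes the desmosome protein desmoplakin, stood at 6.74, 6.79, 8.55 and 8.78 at 2 h, 6 h, 24 h and 48 h of BMS961, against 7.22 and 6.53 with vehicle. Dsc2, a desmosomal cadherin gene, stood at 4.10, 4.70, 6.33 and 7.35, against 5.28 and 4.38 with vehicle. Both rose late in limma, Dsp by 1.79 ± 0.24 (SE; adjusted p = 0.0046) and Dsc2 by 2.01 ± 0.31 (adjusted p = 0.00939). Esrp1, an epithelial splicing factor gene, stood at 7.86, 7.01, 5.37 and 4.59, against 6.30 and 8.07 with vehicle, and Cldn6, a tight junction gene, at 8.22, 7.51, 7.13 and 6.19, against 7.88 and 8.01. Neither passed late in limma (adjusted p = 0.077 for Esrp1 and 0.116 for Cldn6).

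Gfra1, the GDNF co-receptor gene, and Greb1l, a retinoid-responsive developmental gene, had like courses. Gfra1 stood at 5.99, 6.43, 8.43 and 8.86 with BMS961, against 6.52 and 5.48 with vehicle. Greb1l stood at 5.36, 6.13, 7.84 and 8.31, against 5.78 and 5.03 with vehicle, and rose late by 2.67 ± 0.24 (SE; adjusted p = 0.000421 in limma).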
